A study of Mus musculus with 22 samples.

Results

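The 34 genes described here are those whose names in the count files are Cdh or Pcdh followed by a number and nothing else, 23 cadherin genes and 11 protocadherin genes, out of 55376 genes counted. The name rule takes in the classical cadherins, of which 5 are type I and 13 are type II, and the non-clustered protocadherins. It also takes in genes that are not classical cadherins, namely Cdh13, whose product is held in the membrane by a lipid anchor, and the more distant Cdh16, Cdh17, Cdh23, Cdh26 and Pcdh15. It leaves out the clustered protocadherins and Pcdh11x, whose names carry letters. Polyadenylated RNA was sequenced from cells sorted from mouse embryos at stage E12.5. In the knockout series, endothelial cells were sorted for a Cherry reporter of Kdr, a VEGF receptor gene of vessels, and motor neurons by GFP driven from Isl1, which encodes a transcription factor that sensory neurons share. They came from the spinal cord dissected with its meninges, from Plxnd1 knockout and wild-type (WT) embryos pooled by genotype, with 3 libraries labelled for each cell type and genotype. In the regional series, Cherry-positive cells of WT embryos came from the cord tissue itself (spinal) or from the meninges, the membranes around the cord, with 5 libraries each. For the spinal cells of batches 1 to 3 the labels name the ventral cord, and for those of batches 4 and 5 the whole cord. Which part of Plxnd1 was removed, and whether in every cell, is not given in the sources used here.

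Cadherins are calcium-dependent adhesion proteins of the cell surface. Classical cadherins bind like molecules on the neighbouring cell, and their tails hold beta-catenin and p120-catenin and through these the actin cytoskeleton. Type I members such as E-cadherin (Cdh1) and N-cadherin (Cdh2) adhere strongly, whereas type II members are expressed in overlapping combinations, which in the chick spinal cord sort motor neurons into pools. Non-clustered protocadherins of the delta1 and delta2 groups adhere weakly and act in cell sorting and in axon growth. VE-cadherin (Cdh5) is the adhesion molecule of the endothelial junction, and N-cadherin joins endothelial cells to pericytes, the contractile cells that wrap small vessels.

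Of the 22 files, the one labelled WT endothelial batch 2 is identical to that of knockout endothelial batch 1 in all 55376 genes, and both headers carry the name of a knockout library. It was left out, and the WT endothelial group has 2 libraries, of batches 1 and 3. In the knockout series totals were 20680902 to 27035395 counts for the 11 libraries used there and 15685784 to 21493255 for the 10 regional ones. The 2 series were counted with different settings and are never tested against each other. Levels are CPM, each gene's count scaled to a common library size. Plxnd1, the gene removed, had 28.9, 15.4 and 18.7 CPM in the knockout endothelial libraries, against 213 and 175 CPM in the WT ones, and 1.79, 0.646 and 0.771 CPM in knockout motor neurons, against 12.1, 5.14 and 7.80 CPM in WT motor neurons. All sorts held RNA of other cell types. The sum over 8 fibroblast markers was 9602 to 11413 CPM in the endothelial libraries of the knockout series, 1071 to 1708 CPM in spinal and 9299 to 12418 CPM in meningeal endothelial libraries. That over 10 endothelial markers was 451 to 1081 CPM in the knockout series, 1644 to 3651 CPM in spinal and 760.01 to 1629 CPM in meningeal libraries. The motor neuron libraries held 1111 to 1849 CPM of 6 interneuron markers, beside 621 to 1771 CPM of 9 motor neuron markers. In bulk RNA, fewer cells of a type and less RNA per cell cannot be told apart.

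Each sorted population had a few dominant members. Per kilobase of exon, the highest was Cdh11, a type II cadherin of mesenchymal cells, at 128 ± 9.68 CPM per kb in knockout and 119 ± 4.76 CPM per kb in WT endothelial libraries (SD, n = 3 and 2). Pcdh18, a delta2 protocadherin, followed at 74.5 ± 6.08 in knockout and 72.97 ± 6.90 CPM per kb in WT cells, and VE-cadherin was the third at 35.5 ± 9.52 in knockout and 43.3 ± 7.41 CPM per kb in WT cells. Then came Cdh2 at 27.8 ± 6.35 in knockout and 25.5 ± 5.92 CPM per kb in WT cells and the type II member Cdh24 at 21.2 ± 3.04 in knockout and 22.9 ± 2.07 CPM per kb in WT cells, whose ranges over libraries overlap. The motor neurons had another order. Cdh2 led at 60.1 ± 12.3 CPM per kb in knockout and 59.5 ± 3.86 CPM per kb in WT motor neurons (SD, n = 3 each), ahead of Cdh24 at 36.5 ± 3.42 in knockout and 38.8 ± 5.18 CPM per kb in WT cells and Pcdh8 at 20.99 ± 0.957 in knockout and 20.8 ± 1.32 CPM per kb in WT cells. Next came Cdh6 and Cdh13 in knockout motor neurons, at 18.7 ± 7.33 and 18.4 ± 4.03 CPM per kb, and Cdh4 and Cdh6 in WT motor neurons, at 17.5 ± 5.48 and 16.2 ± 6.92 CPM per kb, differences that lie within the SDs.

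The order also differed between the regional groups. Spinal endothelial libraries held most Cdh5 (93.8 ± 35.03 CPM per kb, SD, n = 5), then Cdh2 (84.5 ± 5.83), Pcdh18 (75.4 ± 35.5), Cdh11 (53.9 ± 18.7) and Pcdh1 (28.8 ± 5.90). The first 3 of these do not differ beyond their spread. Meningeal endothelial libraries held most Cdh11 (123 ± 11.1 CPM per kb, SD, n = 5), then Pcdh18 (83.2 ± 8.96), Cdh5 (66.96 ± 20.98), Cdh2 (19.9 ± 3.01) and Cdh24 (10.98 ± 2.37). At the low end, 5 to 10 of the 34 members averaged under 1 CPM in a group. Cdh16, a kidney cadherin, had at most 1 count in any library of the knockout series and 0 in its 5 WT libraries, where 3 counts would be 0.107 to 0.144 CPM. Cdh15 (M-cadherin of muscle), Cdh17 of liver and intestine, and Cdh26 stayed at or under 1.80 CPM in all 21 libraries.

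**Figure D1:**
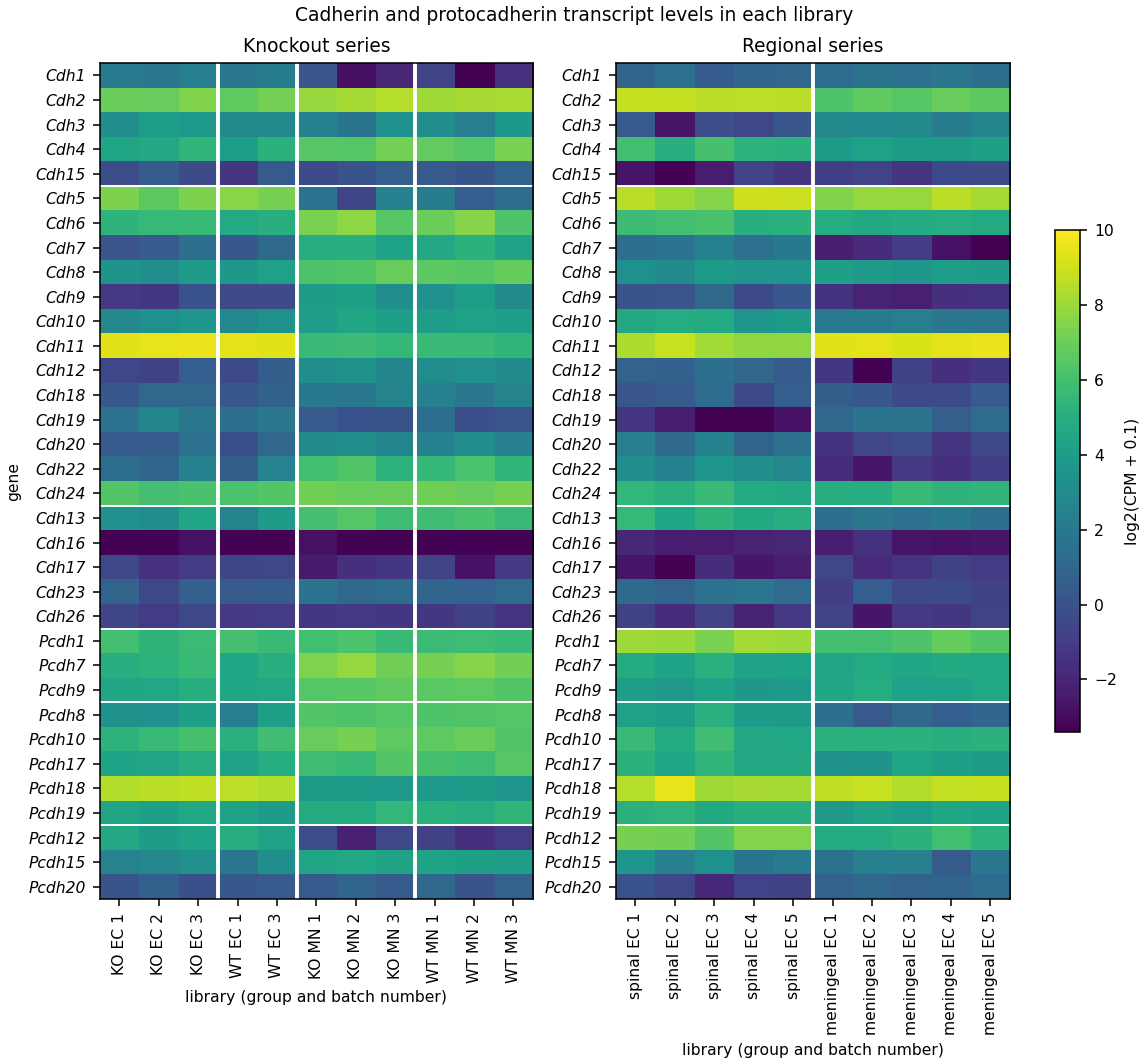
Level of each of the 34 genes (rows, grouped by class and separated by white lines) as log2(CPM + 0.1) in each library (columns, group and batch number; KO is the Plxnd1 knockout, EC endothelial cells, MN motor neurons), with the 2 series in separate panels. Cdh11 and Pcdh18 are bright in the endothelial columns of both panels, Cdh5 is bright in all endothelial columns and dark in motor neurons, and Cdh16 is near 0 throughout.

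The comparison of endothelial cells with motor neurons asks which members each cell type uses, and most of the family was lower in endothelial cells. In WT embryos 5 members were higher in endothelial cells, Cdh5, Pcdh12, Pcdh18, Cdh11 and Cdh1, and 20 were lower, among them 10 of the 13 type II cadherins and 4 of the 5 delta2 protocadherins. The fold changes among those higher lay between 14.2 and 67.7. These counts come from edgeR's quasi-likelihood test at an adjusted p under 0.05 over all 19266 genes tested, of which 33.8% were higher and 31% lower. Of the 33 members tested 8 did not pass, and 1, Cdh16, was too low to test. The median log2 fold change of the members tested was -1.15, beside 0.02 over all genes tested.

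VE-cadherin (chr8:104101625-104144511, plus strand, mm10) marked the endothelial sort. Cdh5 had 165, 98.1 and 162 CPM in knockout and 194 and 152 CPM in WT endothelial libraries, against 3.20, 0.565 and 5.55 CPM in knockout and 4.55, 1.44 and 2.39 CPM in WT motor neurons. Its log2 fold change in WT cells was 5.93 ± 0.63 (SE, adjusted p = 1.55e-05, edgeR). Pcdh12, a protocadherin of endothelial cells also called VE-cadherin-2, had 25.3, 15.3 and 20.6 CPM in knockout and 31.2 and 20.2 CPM in WT endothelial libraries, against 0.748, 0.121 and 0.617 CPM in knockout and 0.492, 0.240 and 0.377 CPM in WT motor neurons. It showed the largest WT log2 fold change of the members tested, 6.08 ± 0.48 (SE, adjusted p = 2.1e-06). Its levels among the endothelial libraries followed those of Cdh5, highest in WT batch 1 and lowest in knockout batch 2, the libraries with the highest and lowest endothelial marker sums.

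Cdh11 (chr8:102632095-102785642, minus strand) and Pcdh18 (chr3:49743296-49757316, minus strand) were more abundant per kilobase in the endothelial sort than VE-cadherin. Cdh11 had 665, 738 and 772 CPM in knockout and 694 and 656 CPM in WT endothelial libraries, against 48.6, 54.4 and 45.9 CPM in knockout and 49.9, 51.4 and 41.4 CPM in WT motor neurons, with a WT log2 fold change of 3.83 ± 0.13 (SE, adjusted p = 1.82e-08). Pcdh18 had 354, 387 and 417 CPM in knockout and 403 and 353 CPM in WT endothelial libraries, against 14.6, 15.9 and 13.7 CPM in knockout and 14.2, 14.8 and 11.99 CPM in WT motor neurons (WT log2 fold change 4.79 ± 0.13, SE, adjusted p = 1.6e-08). Both genes varied little between libraries of a group, unlike Cdh5. The 8 fibroblast markers were all higher in the same direction, with sums of 10045, 9673 and 11413 CPM in knockout and 9602 and 9869.6 CPM in WT endothelial libraries, against 537, 361 and 736 CPM in knockout and 684, 508 and 811 CPM in WT motor neurons, and none of these markers was at 0 in any library. Their part in the levels of Cdh11 and Pcdh18 was not tested in this series. E-cadherin (Cdh1) was low but called, with 4.25, 3.82 and 4.92 CPM in knockout and 3.81 and 4.50 CPM in WT endothelial libraries, against 0.998, 0.0404 and 0.154 CPM in knockout and 0.533, 0 and 0.251 CPM in WT motor neurons (WT log2 fold change 3.92 ± 0.90, SE, adjusted p = 0.00302).

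Pcdh18 and Pcdh8 are of the same delta2 group and lay on opposite sides of this comparison, and the 250 bases before their RefSeq start sites (GRCm38.p6) are shown because these windows hold no annotated exon of the files. Capitals mark GGAAG, the core bound by ETS factors, on either strand (CTTCC); 64.1% of 32841 promoter windows of this length hold it, as do 16 of 25 windows of the 22 members in the table. The Pcdh18 window (chr3:49757317-49757566, minus strand) has 23 CG dinucleotides and the Pcdh8 window (chr14:79771313-79771562, minus strand) has 11, beside a median of 10 over the 25 member windows and 6 over all windows. A match to TATAAA or its complement TTTATA lies in the Pcdh8 window and not in that of Pcdh18, and in 12.4% of all windows.
Pcdh18: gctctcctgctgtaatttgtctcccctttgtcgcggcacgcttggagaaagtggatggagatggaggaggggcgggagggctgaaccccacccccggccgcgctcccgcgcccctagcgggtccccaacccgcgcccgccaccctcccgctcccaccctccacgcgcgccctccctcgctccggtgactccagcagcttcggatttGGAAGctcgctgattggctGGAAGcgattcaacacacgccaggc
Pcdh8: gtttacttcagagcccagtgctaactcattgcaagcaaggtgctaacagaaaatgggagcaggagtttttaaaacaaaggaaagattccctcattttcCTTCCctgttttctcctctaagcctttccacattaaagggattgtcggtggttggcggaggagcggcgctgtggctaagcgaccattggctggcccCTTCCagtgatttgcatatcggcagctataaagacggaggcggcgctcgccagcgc

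Among the members lower in endothelial cells, the 4 largest fold changes in size were those of the type II cadherins Cdh9, Cdh7, Cdh22 and Cdh12. All 6 interneuron markers were lower there as well, with a median log2 fold change of -4.31, and so were 8 of the 9 motor neuron markers, with a median of -3.87. Neural progenitor markers went the other way, with 6 of 7 higher in endothelial cells and a median of 1.94. The part of cell makeup in the members' values was not tested. Cdh9, known from hippocampal synapses, had 0.640 and 0.685 CPM in WT endothelial cells, against 10.3, 17.4 and 7.96 CPM in WT motor neurons, a log2 fold change of -4.15 ± 0.52 (SE, adjusted p = 4.88e-05). Cdh7, a motor pool cadherin in the chick, had 1.14 and 2.27 CPM in WT endothelial cells, against 26.1, 37.01 and 20.1 CPM in WT motor neurons (log2 fold change -4.02 ± 0.49). Cdh22 had 1.35 and 5.80 CPM in WT endothelial cells, against 46.5, 73.6 and 41.95 CPM in WT motor neurons (log2 fold change -3.92 ± 0.65). In all 3 genes the batch 3 endothelial library was the higher of the WT pair, and the gap was widest in Cdh22. Cdh12 had 0.676 and 1.37 CPM in WT endothelial cells, against 8.36, 10.2 and 7.92 CPM in WT motor neurons (log2 fold change -3.11 ± 0.47). Cdh8 had 13.5 and 19.1 CPM in WT endothelial cells, against 99.95, 90.7 and 113 CPM in WT motor neurons (log2 fold change -2.64 ± 0.27). Cdh8 lies next to Cdh11 on chromosome 8, 3.22 Mb away, and the 2 neighbours moved in opposite directions here.

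Cdh20, whose chick counterpart was named MN-cadherin for its expression in motor neurons, had 0.818 and 1.95 CPM in WT endothelial cells, against 5.61, 9.28 and 5.36 CPM in WT motor neurons (log2 fold change -2.28 ± 0.49). Cdh6 had 27.2 and 32.4 CPM in WT endothelial cells, against 126, 191 and 78.9 CPM in WT motor neurons (log2 fold change -2.15 ± 0.40). Cdh18 had 1.07 and 1.62 CPM in WT endothelial cells, against 5.53, 3.70 and 5.87 CPM in WT motor neurons (log2 fold change -1.90 ± 0.38), and Cdh10 had 7.01 and 9.94 CPM in WT endothelial cells, against 17.2, 19.1 and 17.2 CPM in WT motor neurons (log2 fold change -1.07 ± 0.23). With these, all 5 members on chromosome 15 (Cdh6, Cdh9, Cdh10, Cdh12 and Cdh18, with gaps of 1.45 to 3.56 Mb) were lower in endothelial cells. The tenth type II member lower there was Cdh24, at 74.6 and 84.9 CPM in WT endothelial cells, against 134, 118 and 154 CPM in WT motor neurons (log2 fold change -0.77 ± 0.15). Among type I cadherins, R-cadherin (Cdh4) had 16.5 and 37.3 CPM in WT endothelial cells, against 110.2, 87.1 and 160.02 CPM in WT motor neurons (log2 fold change -2.15 ± 0.44), and Cdh2 had 106 and 147 CPM in WT endothelial cells, against 274, 299 and 311 CPM in WT motor neurons (log2 fold change -1.22 ± 0.22). T-cadherin (Cdh13) had 6.15 and 16.1 CPM in WT endothelial cells, against 59.3, 71.4 and 51.9 CPM in WT motor neurons (log2 fold change -2.45 ± 0.47). Adjusted p-values of the members lower in endothelial cells lay between 4.72e-06 and 0.00715 in edgeR.

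Of the 11 protocadherins, 7 were lower in WT endothelial cells. Pcdh8 had 5.12 and 17.98 CPM in WT endothelial cells, against 78.1, 83.2 and 88.6 CPM in WT motor neurons, a log2 fold change of -2.85 ± 0.44 (SE); the motor neuron values were even, whereas the batch 3 endothelial library held over 3-fold more than that of batch 1. Of the exon bases of Pcdh8, 10.9% are also annotated to Gm9748 on the other strand, which these unstranded counts cannot separate. Pcdh7, a delta1 protocadherin, had 22.7 and 33.5 CPM in WT endothelial cells, against 152, 192 and 140.4 CPM in WT motor neurons (log2 fold change -2.52 ± 0.28), and Pcdh9 of the same group had 22.7 and 25.1 CPM in WT endothelial cells, against 96.5, 101 and 84.1 CPM in WT motor neurons (log2 fold change -1.97 ± 0.18). In both genes the endothelial values lay far under those of the motor neurons. Pcdh1, the third delta1 member, did not pass, at 66.7 and 51.7 CPM in WT endothelial cells, against 52.4, 58.01 and 49.7 CPM in WT motor neurons (log2 fold change 0.15 ± 0.21), and its groups overlap. Among the delta2 members, Pcdh17 had 19.5 and 30.2 CPM in WT endothelial cells, against 69.5, 57.6 and 90.6 CPM in WT motor neurons (log2 fold change -1.55 ± 0.29). Pcdh10 had 34.96 and 58.7 CPM in WT endothelial cells, against 103, 128 and 81.98 CPM in WT motor neurons (log2 fold change -1.15 ± 0.31), and this call ended when the WT endothelial library of batch 1 was left out (-0.82, adjusted p = 0.0834, edgeR). Pcdh10 lies 4.31 Mb from Pcdh18 on chromosome 3 and moved the other way. Pcdh15, a protein of the inner ear tip link, had 3.59 and 9.48 CPM in WT endothelial cells, against 19.9, 18.2 and 16.6 CPM in WT motor neurons (log2 fold change -1.48 ± 0.36), and Pcdh19 was the other delta2 member called (log2 fold change -0.98 ± 0.23).

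The 8 members that did not pass in WT embryos were mostly low. Cdh19 had 2.67 and 3.71 CPM in WT endothelial cells, against 2.62, 0.817 and 1.01 CPM in WT motor neurons (log2 fold change 1.09 ± 0.48, adjusted p = 0.0691, edgeR), and it was called without WT motor neuron batch 1, the highest of the motor neuron libraries (1.82, adjusted p = 0.00459). Cdh23 had 1.21 and 1.33 CPM in WT endothelial cells, against 1.88, 1.68 and 2.35 CPM in WT motor neurons (log2 fold change -0.63 ± 0.41), and it was called lower with the batches as pairs (-0.85, adjusted p = 0.0467), a fit in which 34.7% of genes were higher and 32.2% lower. Cdh3 had 8.04 and 7.49 CPM in WT endothelial cells, against 8.81, 4.95 and 13.4 CPM in WT motor neurons, groups that overlap (log2 fold change -0.22 ± 0.47). Pcdh20 (-0.38 ± 0.40), Cdh17 (0.91 ± 0.67), Cdh26 (0.044 ± 0.37) and Cdh15 (-0.76 ± 0.57) completed this group on the log2 fold change scale, and Cdh15 was called without WT endothelial batch 3 (-2.01, adjusted p = 0.0309).

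In knockout embryos the same 5 members were higher and the same 20 lower in endothelial cells, and 3 more were called: Cdh19 and Cdh3 were higher and Cdh23 was lower, giving 7 higher and 21 lower of 33 tested, where 35.3% of all genes were higher and 33.5% lower. Cdh19, a cadherin of Schwann cells, had 3.14, 6.62 and 3.69 CPM in knockout endothelial cells, against 1.29, 0.888 and 0.964 CPM in knockout motor neurons (log2 fold change 2.10 ± 0.46, SE, adjusted p = 0.00196, edgeR), and 4 of the 6 Schwann cell and neural crest markers were higher as well. P-cadherin (Cdh3) had 9.30, 16.5 and 14.3 CPM in knockout endothelial cells, against 5.53, 3.39 and 9.95 CPM in knockout motor neurons, groups that overlap (1.08 ± 0.42, adjusted p = 0.0397). The Cdh3 call ended without knockout endothelial batch 2 or 3 or knockout motor neuron batch 1 or 2, with log2 fold changes of 0.78 to 1.04. Cdh23, the partner of Pcdh15 in the tip link, had 1.75, 0.612 and 1.56 CPM in knockout endothelial cells, against 3.12, 2.02 and 2.47 CPM in knockout motor neurons (-0.96 ± 0.36, adjusted p = 0.0339), and its call ended without knockout endothelial batch 2 or knockout motor neuron batch 1 or 3, and with no filter on low counts (-0.95, adjusted p = 0.0538). That of Pcdh19, at -0.66 ± 0.20, ended without knockout endothelial batch 2 (-0.56) or knockout motor neuron batch 3 (-0.41). That these calls were made in 1 genotype does not show a difference between genotypes, since the interaction of genotype and cell type was called for no member. Of the 24 partner genes of cadherins listed for comparison (catenins, nectins, and the large Fat, Dachsous and Celsr cadherins), 12 were higher and 8 lower in endothelial cells in each genotype. In WT cells those over 1 in size were Fat2 (log2 fold change 6.36), the catenin Ctnna1 (3.0), Vcl (2.40), Ctnna3 (2.22), Celsr1 (2.08), Fat1 (1.81), Nectin2 (1.098) and Jup (1.09) on the higher side. On the lower side stood Celsr3 (-3.34), Fat3 (-2.18), Ctnnd2 (-1.76), Celsr2 (-1.48), the neural catenin Ctnna2 (-1.41), Nectin4 (-1.35) and Arvcf (-1.19).

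The knockout libraries gave these values for the members lower in endothelial cells by a log2 fold change over 1 in size. Cdh9 had 0.358, 0.324 and 0.899 CPM in knockout endothelial cells, against 16.002, 18.2 and 9.41 CPM in knockout motor neurons (log2 fold change -4.82 ± 0.46). Cdh7 had 0.994, 1.26 and 2.70 CPM in knockout endothelial cells, against 31.01, 33.7 and 20.8 CPM in knockout motor neurons (log2 fold change -4.13 ± 0.42). Cdh22 had 2.58, 1.87 and 5.54 CPM in knockout endothelial cells, against 61.8, 80.8 and 38.1 CPM in knockout motor neurons (log2 fold change -4.20 ± 0.56). In these 3 type II cadherins every endothelial value lay under every motor neuron value. Cdh12 had 0.596, 0.468 and 1.42 CPM in knockout endothelial cells, against 9.73, 10.7 and 6.55 CPM in knockout motor neurons (log2 fold change -3.46 ± 0.41). Cdh8 had 11.4, 9.43 and 15.4 CPM in knockout endothelial cells, against 76.4, 81.1 and 119.7 CPM in knockout motor neurons (log2 fold change -2.94 ± 0.23). Cdh20 had 1.23, 1.33 and 2.93 CPM in knockout endothelial cells, against 7.98, 9.36 and 6.05 CPM in knockout motor neurons (log2 fold change -2.10 ± 0.42). The groups did not overlap in these 3 genes either. Cdh6 had 40.4, 47.4 and 52.1 CPM in knockout endothelial cells, against 157, 211 and 91.3 CPM in knockout motor neurons (log2 fold change -1.71 ± 0.34). Cdh18 had 1.07, 2.12 and 1.99 CPM in knockout endothelial cells, against 3.95, 3.83 and 5.86 CPM in knockout motor neurons (log2 fold change -1.39 ± 0.32). Cdh18 had the lowest motor neuron values of all the members lower in endothelial cells by over 1. Cdh4 had 21.99, 25.5 and 43.1 CPM in knockout endothelial cells, against 91.5, 87.6 and 149.6 CPM in knockout motor neurons (log2 fold change -1.86 ± 0.37). Cdh2 had 121, 118 and 174 CPM in knockout endothelial cells, against 241, 289.6 and 362 CPM in knockout motor neurons (log2 fold change -1.11 ± 0.19). Cdh13 had 10.3, 9.14 and 22.8 CPM in knockout endothelial cells, against 65.01, 86.8 and 57.4 CPM in knockout motor neurons (log2 fold change -2.32 ± 0.40). The batch 3 endothelial library was the highest of its group in Cdh4, Cdh2 and Cdh13, as it was in the WT pair. Pcdh8 had 11.3, 10.3 and 18.5 CPM in knockout endothelial cells, against 85.2, 79.7 and 87.01 CPM in knockout motor neurons (log2 fold change -2.66 ± 0.37). Pcdh7 had 32.2, 38.5 and 50.1 CPM in knockout endothelial cells, against 171, 231 and 139 CPM in knockout motor neurons (log2 fold change -2.16 ± 0.24). Pcdh9 had 22.5, 23.5 and 33.3 CPM in knockout endothelial cells, against 88.7, 92.1 and 107 CPM in knockout motor neurons (log2 fold change -1.86 ± 0.15). The endothelial values of these 3 protocadherins lay under their motor neuron values. Pcdh17 had 20.96, 21.7 and 30.9 CPM in knockout endothelial cells, against 59.4, 51.4 and 84.04 CPM in knockout motor neurons (log2 fold change -1.41 ± 0.25). Pcdh10 had 37.8, 51.8 and 68.8 CPM in knockout endothelial cells, against 119.5, 155 and 101 CPM in knockout motor neurons (log2 fold change -1.25 ± 0.27). Pcdh15 had 5.69, 6.80 and 10.04 CPM in knockout endothelial cells, against 22.5, 24.9 and 20.01 CPM in knockout motor neurons (log2 fold change -1.58 ± 0.31). The knockout groups of these 3 did not overlap. Such gaps were the rule among members called, at 27 of 28 in knockout and 25 of 25 in WT embryos. The share of all genes with groups apart was not computed. Cdh24, under 1 in size, had 85.6, 64.9 and 71.5 CPM in knockout endothelial cells, against 141, 117 and 124 CPM in knockout motor neurons (log2 fold change -0.78 ± 0.13). All errors are SE, and the adjusted p-values lay between 1.52e-06 and 0.00278 (edgeR).

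**Figure D2:**
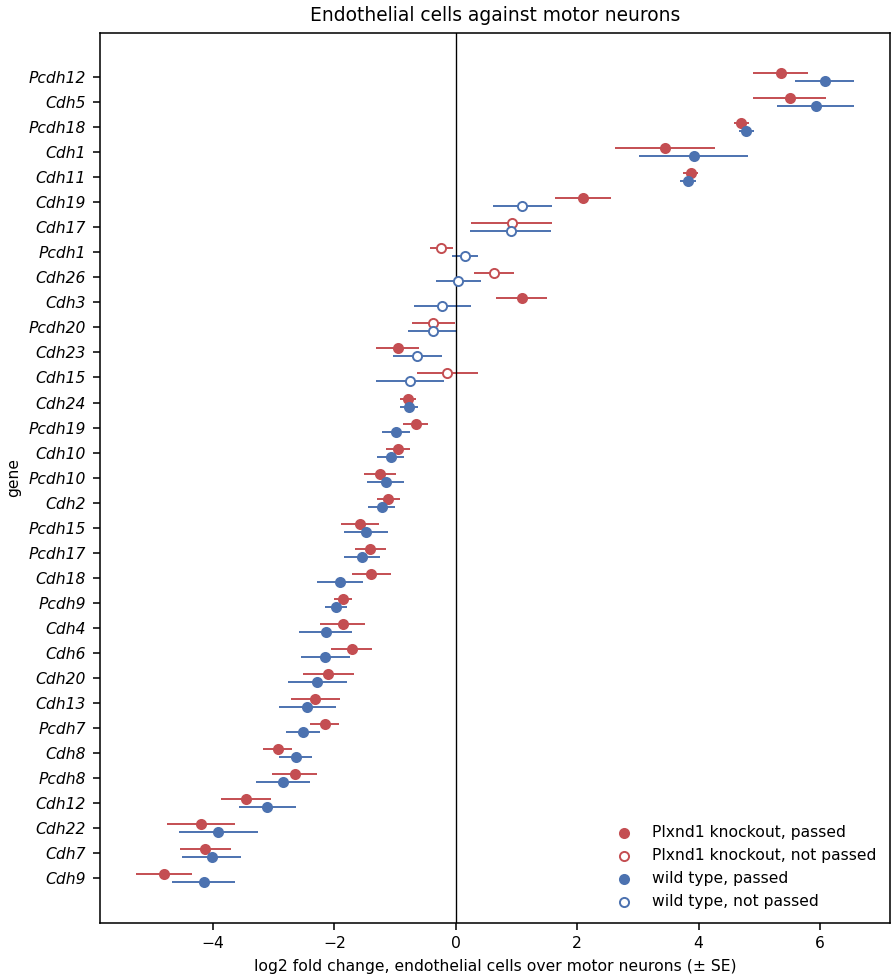
Log2 fold change (x axis, ± SE) of the 33 members tested, endothelial cells over motor neurons, in Plxnd1 knockout and WT embryos, with filled points for an adjusted p under 0.05. Pcdh12, Cdh5, Pcdh18, Cdh1 and Cdh11 stand on the right in both genotypes, and 20 members stand on the left with filled points in both.

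Within the motor neuron libraries the levels of many members followed the batch in both genotypes. Of the 30 members tested there, 13 were highest in batch 2 in knockout and in WT libraries and 9 were highest in batch 3 in both. The share of all genes with such an order was not computed. Over all genes passing the filter, same-numbered motor neuron libraries deviated together too (r of 0.359 to 0.413), so following the batch is not particular to the members. Those highest in batch 2 were Cdh6, Cdh7, Cdh9, Cdh10, Cdh11, Cdh12, Cdh13, Cdh20, Cdh22, Pcdh1, Pcdh7, Pcdh10 and Pcdh18. Those highest in batch 3 were Cdh2, Cdh3, Cdh4, Cdh8, Cdh15, Cdh18, Pcdh8, Pcdh17 and Pcdh19. Cdh6 had 157, 211 and 91.3 CPM in knockout batches 1 to 3, and 126, 191 and 78.9 CPM in those of WT, and Cdh4 had 91.5, 87.6 and 149.6 CPM in knockout and 110.2, 87.1 and 160.02 CPM in WT batches 1 to 3. The summed motor neuron markers had the order of Cdh6, at 1399.6, 1771 and 621 CPM in knockout and 961, 1490.1 and 621 CPM in WT libraries. The summed Schwann cell and neural crest markers had it too, at 485, 669 and 287 CPM in knockout and 432, 601 and 281 CPM in WT libraries. The summed interneuron markers were highest in batch 3, at 1398, 1111 and 1739 CPM in knockout and 1536, 1436 and 1849 CPM in WT libraries. So were the summed fibroblast and the summed sensory neuron markers in both genotypes. Their part in the spread of the members was not tested.

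The comparison of spinal with meningeal endothelial cells asks how the adhesion genes of vessels inside the cord differ from those of the vessels around it. Here 16 members were higher in spinal cells and 5 lower, of 30 tested, where 24.8% of all 16213 genes tested were higher and 23% lower (edgeR, adjusted p under 0.05). The median log2 fold change of the members tested was 0.91, beside 0.01 over all genes. N-cadherin was 4.24-fold and the endothelial Pcdh12 3.83-fold higher in spinal cells, while Cdh11, Cdh3, Cdh19 and Pcdh20 were lower by 2-fold or more. VE-cadherin did not pass.

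VE-cadherin had 395, 275, 193, 521 and 491 CPM in spinal batches 1 to 5, against 175, 237, 233, 397 and 295 CPM in meningeal batches 1 to 5. The groups overlap, since spinal batch 3 lies below 4 meningeal libraries, with a log2 fold change of 0.49 ± 0.28 (SE, adjusted p = 0.169, edgeR). Without spinal batch 3 it was 0.64 with an adjusted p of 0.0488. Pcdh12 had 151, 141, 84.9, 185 and 181 CPM in spinal libraries, against 28.5, 28.2, 36.9, 60.8 and 38.96 CPM in meningeal libraries, with no overlap (log2 fold change 1.94 ± 0.25, adjusted p = 3.77e-05). Pcdh1, 55 kb from Pcdh12 on chromosome 18 (a gap of 0.055 Mb), had 263, 254, 156, 284 and 258 CPM in spinal libraries, against 63.6, 64.6, 77.9, 113 and 84.4 CPM in meningeal libraries (log2 fold change 1.59 ± 0.19, adjusted p = 2.29e-05). Unlike Cdh5 and Pcdh12, Pcdh1 did not pass between endothelial cells and motor neurons in either genotype. In all 3 genes spinal batch 3 was the lowest spinal library and batch 4 the highest, as were the endothelial marker sums of 3163, 2495, 1644, 3651 and 3502 CPM in spinal libraries, against 805, 760.01, 994, 1629 and 1111 CPM in meningeal libraries. Of the 10 endothelial markers, 8 were higher in spinal libraries and 2 did not pass. None of these 3 genes is in that sum. As a ratio to it, Cdh5 was 12.7 ± 1.42% in spinal and 25.5 ± 3.62% in meningeal libraries (SD, n = 5 each), lower in 5 of 5 spinal libraries. Ratios to marker sums were chosen after the data were seen and are given as a description, with no test. Pcdh12 was 5.17 ± 0.314% of the sum in spinal and 3.64 ± 0.109% in meningeal libraries, and Pcdh1 was 8.64 ± 1.18% in spinal and 7.75 ± 0.572% in meningeal libraries.

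N-cadherin showed the smallest p of the members. Cdh2 had 453, 448, 396, 399 and 398 CPM in spinal libraries, against 80.6, 106, 88.7, 119 and 99.8 CPM in meningeal libraries, a log2 fold change of 2.08 ± 0.12 (SE, adjusted p = 1.46e-07). The spinal values were close to each other and stood far above the meningeal ones. R-cadherin (Cdh4) had 61.4, 33.3, 67.4, 37.9 and 35.8 CPM in spinal libraries, against 14.7, 19.4, 14.7, 14.98 and 18.7 CPM in meningeal libraries (log2 fold change 1.51 ± 0.21, adjusted p = 7.3e-05). T-cadherin (Cdh13) had 48.2, 22.04, 39.6, 27.002 and 30.9 CPM in spinal libraries, against 2.68, 3.67, 3.04, 3.83 and 2.62 CPM in meningeal libraries (log2 fold change 3.40 ± 0.23, adjusted p = 3.09e-07). Both groups of Cdh13 are tight beside the gap between them. Pcdh8 had 19.5, 16.8, 34.8, 16.1 and 14.7 CPM in spinal libraries, against 2.84, 1.16, 2.22, 1.42 and 1.87 CPM in meningeal libraries (log2 fold change 3.42 ± 0.30, adjusted p = 2.18e-06).

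Of the 5 largest fold changes in size, 3 were of type II cadherins with little RNA in 1 of the groups, Cdh22, Cdh7 and, in the other direction, Cdh19, and the others were those of Pcdh8 and Cdh13. Cdh22 had 9.02, 5.52, 12.3, 9.09 and 6.84 CPM in spinal libraries, against 0.215, 0.0643, 0.351, 0.236 and 0.427 CPM in meningeal libraries (log2 fold change 4.995 ± 0.36, adjusted p = 5.13e-07). Cdh7 had 2.58, 3.12, 5.58, 3.01 and 3.99 CPM in spinal libraries, against 0.107, 0.193, 0.409, 0.0473 and 0 CPM in meningeal libraries (log2 fold change 4.60 ± 0.54). Cdh20 had 5.27, 2.24, 5.53, 1.77 and 2.95 CPM in spinal libraries, against 0.268, 0.579, 0.760, 0.284 and 0.640 CPM in meningeal libraries (log2 fold change 2.82 ± 0.42). These 3 genes were also lower in endothelial cells than in motor neurons, and spinal batch 3 was the highest library for each. Cdh12 had 1.64, 1.53, 2.70, 1.90 and 1.30 CPM in spinal libraries, against 0.322, 0, 0.468, 0.236 and 0.320 CPM in meningeal libraries (log2 fold change 2.71 ± 0.47). Cdh9 had 0.937, 0.985, 2.25, 0.654 and 1.09 CPM in spinal libraries, against 0.268, 0.129, 0.117, 0.236 and 0.267 CPM in meningeal libraries (log2 fold change 2.496 ± 0.42). Cdh10 had 27.1, 29.8, 28.1, 12.4 and 14.8 CPM in spinal libraries, against 4.13, 4.18, 4.91, 3.64 and 3.58 CPM in meningeal libraries (log2 fold change 2.46 ± 0.26), and its ventral batches 1 to 3 all stood above batches 4 and 5. In Cdh12 and Cdh9 too, every spinal library lay above every meningeal one. Groups stood apart for 20 of the 21 members called between regions, and the share over all genes was not computed. Cdh23 had 2.22, 1.75, 2.97, 3.60 and 2.33 CPM in spinal libraries, against 0.429, 1.41, 0.643, 0.662 and 0.480 CPM in meningeal libraries (log2 fold change 1.83 ± 0.35). The members called with smaller changes were Pcdh17 (log2 fold change 0.96 ± 0.22), with 23.2 to 40.8 CPM in spinal and 10.8 to 21.8 CPM in meningeal libraries, Cdh6 (0.87 ± 0.20), and Pcdh19 (0.83 ± 0.15), with 26.3 to 41.2 CPM in spinal and 14.4 to 23.2 CPM in meningeal libraries. The adjusted p-values of these 10 genes lay between 5.13e-07 and 0.00319 (edgeR).

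Of the 20 members lower in WT endothelial cells than in motor neurons, 13 were higher in spinal than in meningeal endothelial cells, 1, Pcdh9, was lower and 6 did not pass. These 13 are 65% of those 20 and 81.25% of the 16 higher in spinal cells. Over all genes, 38.04% of those lower in endothelial cells were higher in spinal cells, which makes up 56.5% of the genes higher there. That 38.04% is over all such genes, whether or not they were tested between regions, whereas these 20 members all were. The 2 shares are thus not fully alike. The 2 comparisons share no library. Markers of neural cells were also higher in spinal cells. All 7 neural progenitor and all 6 interneuron markers were higher in spinal libraries, with median log2 fold changes of 4.77 and 6.27. Against WT motor neurons, all 6 interneuron markers were lower in WT endothelial cells, as these members were. Of the 7 progenitor markers 6 were higher there, the other way from these members. Summed, the progenitor markers had 1003 to 1579.7 CPM in spinal and 420.3 to 495 CPM in meningeal libraries, and the interneuron markers 67.1 to 179.6 CPM in spinal and 1.87 to 7.25 CPM in meningeal libraries. The highest sum of either list was that of spinal batch 3. It was also the highest library for Cdh4, Cdh6, Cdh7, Cdh9, Cdh12, Cdh20, Cdh22 and Pcdh8. This did not hold for all 13 members. Among spinal libraries Cdh2 was lowest in batch 3, Cdh10 was highest in batch 2 and Cdh13 was highest in batch 1. Of the 9 motor neuron markers 5 were higher and 4 did not pass, with a median log2 fold change of 1.69. Their sums, led by the most abundant markers, were 134 to 193 CPM in spinal and 127 to 175 CPM in meningeal libraries. Up to 4 of these markers were at 0 in a meningeal library and none was in a spinal one. The part of neural RNA in the levels of these members was not tested. Of the 7 pericyte and smooth muscle markers, 5 were higher and 2 lower in spinal libraries, with sums of 4338, 8552, 3189, 4205 and 4279 CPM in spinal and 1493, 1333, 1206, 1619.6 and 1500.3 CPM in meningeal libraries.

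Members lower in spinal cells were fewer. Cdh19 had 0.293, 0.109, 0, 0 and 0.0518 CPM in spinal libraries, against 1.98, 3.28, 3.27, 1.47 and 2.30 CPM in meningeal libraries, with 0 counts in spinal batches 3 and 4 (log2 fold change -4.70 ± 0.60, adjusted p = 3.97e-05, edgeR). Cdh7 and Cdh19, neighbours on chromosome 1 with a gap of 0.748 Mb, thus stood at opposite ends. Of the 6 Schwann cell and neural crest markers 5 were lower in spinal libraries as well, with sums of 129.97 to 185 CPM in spinal and 282 to 445 CPM in meningeal libraries, and their part in Cdh19 was not tested. Cdh3 had 1.23, 0.0547, 0.765, 0.588 and 1.04 CPM in spinal libraries, against 7.29, 7.14, 7.77, 4.58 and 6.46 CPM in meningeal libraries (log2 fold change -3.16 ± 0.44, adjusted p = 7.12e-05). Pcdh20 had 0.878, 0.602, 0.180, 0.523 and 0.466 CPM in spinal libraries, against 1.66, 2.06, 1.64, 1.80 and 2.35 CPM in meningeal libraries (log2 fold change -1.85 ± 0.34, adjusted p = 0.00073). Neither gene's groups overlap. Pcdh9 was lower by a small amount, at 16.98, 13.7, 20.7, 13.3 and 15.9 CPM in spinal libraries, against 22.4, 29.4, 19.1, 18.9 and 24.02 CPM in meningeal libraries (log2 fold change -0.50 ± 0.16, adjusted p = 0.0237). The Pcdh9 groups overlap, and the call ended without spinal batch 2 or 4 or meningeal batch 2 or 5 (adjusted p of 0.0508 to 0.0553).

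Cdh11 and Pcdh18 were the members most abundant per kilobase in meningeal libraries. Cdh11 had 329, 474, 280.4, 218 and 219 CPM in spinal libraries, against 685, 709.98, 607, 693 and 782 CPM in meningeal libraries (log2 fold change -1.19 ± 0.20, adjusted p = 0.000364), a difference of 2.29-fold. Pcdh18 had 369, 713, 273, 299.6 and 297 CPM in spinal libraries, against 422, 478, 356, 441 and 457 CPM in meningeal libraries (log2 fold change -0.14 ± 0.24, adjusted p = 0.654). Spinal batch 2 was the highest library of all for Pcdh18 and the highest spinal one for Cdh11, and it also held the highest pericyte marker sum; without it the Pcdh18 difference was -0.48 with an adjusted p of 0.00997. All 8 fibroblast markers were lower in spinal libraries, and their median log2 fold change was -3.12. As a ratio to the fibroblast marker sum, which holds neither gene, Cdh11 was 22.3 ± 4.26% in spinal and 6.67 ± 0.705% in meningeal libraries, and Pcdh18 was 28.4 ± 9.03% in spinal and 4.14 ± 0.627% in meningeal libraries (SD, n = 5 each). These ratios were not tested.

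The 9 members tested that did not pass were Cdh1, Cdh5, Cdh8, Cdh18, Cdh24, Pcdh7, Pcdh10, Pcdh15 and Pcdh18, and 4 members were too low to test. Of these 4, Cdh17 had 0.0586, 0, 0.225, 0.0654 and 0.104 CPM in spinal libraries, against 0.590, 0.193, 0.292, 0.473 and 0.374 CPM in meningeal libraries, and it was called lower by DESeq2 (log2 fold change -2.03, adjusted p = 0.0251) and by edgeR with no filter. Cdh24 had 44.7, 34.02, 50.98, 28.4 and 26.1 CPM in spinal libraries, against 30.3, 30.3, 49.97, 40.03 and 40.99 CPM in meningeal libraries. Cdh24, Pcdh7 and Pcdh10, lower in endothelial cells than in motor neurons, had log2 fold changes of -0.056 ± 0.20, 0.047 ± 0.17 and 0.13 ± 0.24 (SE) between regions. Cdh1 had 1.76, 3.01, 1.30, 1.83 and 1.97 CPM in spinal libraries, against 2.36, 3.28, 2.98, 3.69 and 2.83 CPM in meningeal libraries (log2 fold change -0.62 ± 0.25, adjusted p = 0.0569, edgeR). It was called by DESeq2 (-0.63, adjusted p = 0.0384), in which 19.1% of genes moved each way, with RLE scaling (-0.63, adjusted p = 0.048), and also without spinal batch 2 (-0.82) or meningeal batch 1 (-0.74). Cdh8 had 9.90, 8.10, 14.9, 12.1 and 12.2 CPM in spinal libraries, against 18.6, 14.5, 12.6, 16.4 and 15.3 CPM in meningeal libraries (log2 fold change -0.43 ± 0.17), and it was called without batch 3 of either region (-0.57 and -0.52). Pcdh15 had 12.2, 5.36, 10.1, 3.40 and 4.40 CPM in spinal libraries, against 3.06, 5.27, 5.32, 1.23 and 3.58 CPM in meningeal libraries (log2 fold change 0.95 ± 0.42), and it was called without spinal batch 4 (1.11) or with the batches as pairs (0.92), where 23.9% of genes were higher and 21.3% lower. These 3 genes thus lie near the threshold. Of the 24 partner genes, 12 were higher and 4 lower in spinal cells. Those over 1 in size were Celsr2 (log2 fold change 4.61), Fat3 (3.71), Celsr3 (3.26), Ctnna3 (3.07), Dchs2 (2.20), Celsr1 (2.02) and Arvcf (1.88) on the higher side and Fat2 (-4.30) on the lower. Celsr2, a planar polarity cadherin, had 406, 176, 499.8, 221 and 188 CPM in spinal libraries, against 8.68 to 17.5 CPM in meningeal libraries.

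**Figure D3:**
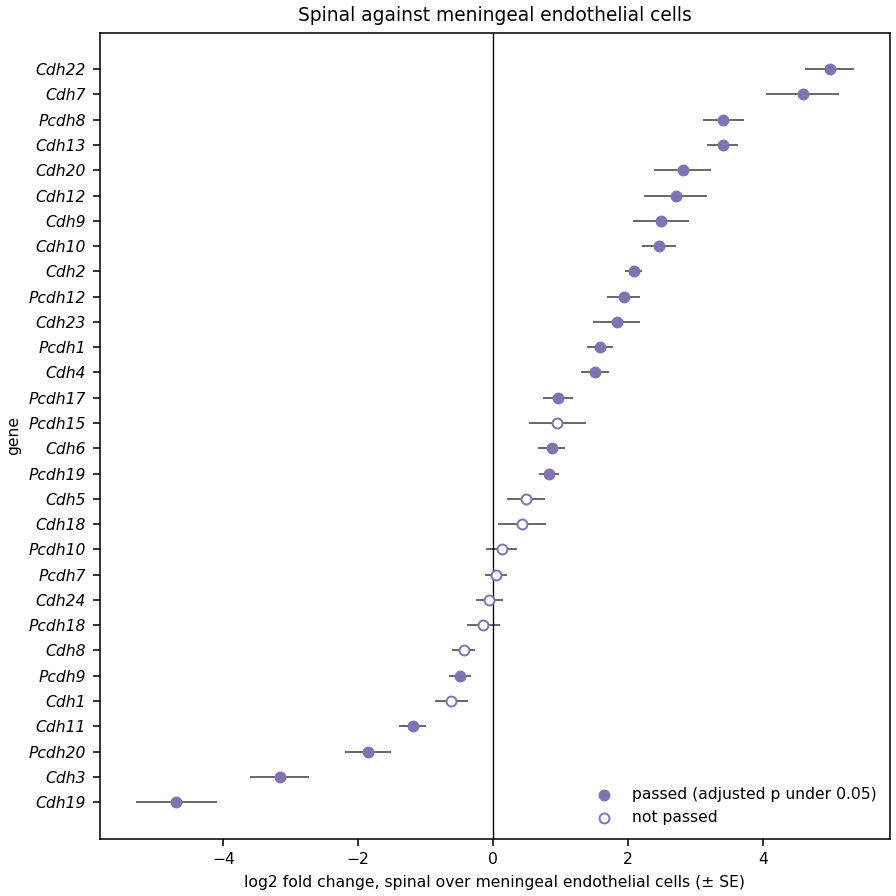
Log2 fold change (x axis, ± SE) of the 30 members tested, spinal over meningeal endothelial cells, filled where the adjusted p was under 0.05. The 16 members higher in spinal cells run from Pcdh19 at 0.83 to Cdh22 at 4.995, and Cdh19, Cdh3, Pcdh20, Cdh11 and Pcdh9 are filled on the left.

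**Figure D4:**
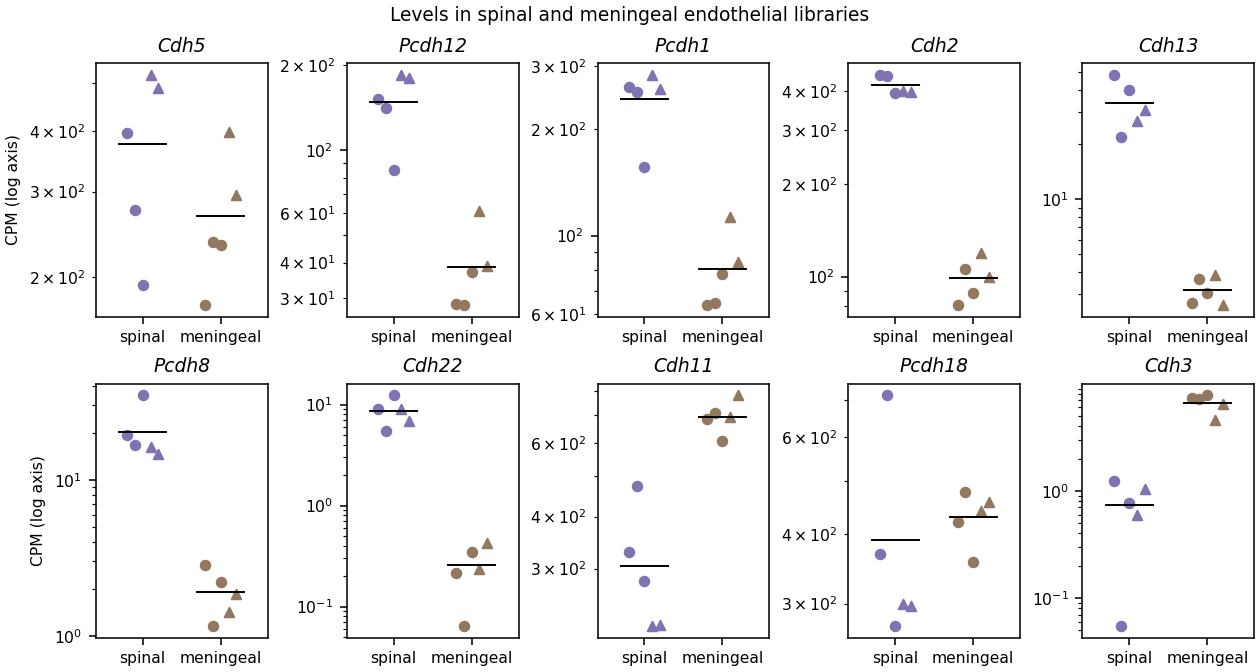
Level of 10 members in each spinal and meningeal endothelial library in CPM on a log axis, with circles for batches 1 to 3, triangles for batches 4 and 5, and a line at the group mean. The groups stand apart for Pcdh12, Pcdh1, Cdh2, Cdh13, Pcdh8, Cdh22, Cdh11 and Cdh3 and overlap for Cdh5 and Pcdh18.

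The labels give ventral cord for 3 spinal batches and whole cord for 2, and the regional difference was compared between these batches. None of the 31 members tested was called by edgeR, where 0.14% of 17901 genes were higher and 0.408% lower. An unadjusted p under 0.05 was found for 7 members, beside 3582 of all 17901 genes tested. Cdh6 came nearest. It had 55.9, 63.8, 71.7, 32.8 and 35.02 CPM in spinal batches 1 to 5, against 29.5, 26.6, 28.8, 29.2 and 27.8 CPM in meningeal batches 1 to 5, so the ventral spinal libraries stood above those of the whole cord while the meningeal ones were level. The regional difference was larger by 0.95 ± 0.18 on the log2 scale in the ventral batches (SE, adjusted p = 0.0509), and DESeq2, in which 1.54% of genes were higher and 4.31% lower, called it (adjusted p = 0.00167). DESeq2 also called Cdh11 (0.90 ± 0.28 in edgeR with an adjusted p of 0.121, and 0.0428 in DESeq2). Beside Cdh11, all 8 fibroblast markers had differences above 0, with a median of 1.35 on the log2 scale. So had all 6 Schwann cell and neural crest markers (median 1.01), the 4 cartilage markers tested (1.03) and 25 of the 31 members (0.43). All 5 macrophage markers (-0.87) and all 6 erythroid markers (-2.91) lay below 0. The part of these markers in the value of Cdh11 was not tested. Dissection and batch cannot be told apart here, since each batch has 1 kind of dissection.

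The comparison of Plxnd1 knockout with WT endothelial cells asks whether loss of this semaphorin receptor of vessels changes the adhesion genes. With unpaired groups edgeR called none of the 33 members tested (0% of 18209 genes were higher and 0% lower), and DESeq2 called no member (0.122% of genes higher and 0.0304% lower). In edgeR 2 members, Cdh6 and Cdh3, had an unadjusted p under 0.05, beside 431 of all 18209 genes tested. In the 2 batches that hold both genotypes, compared as pairs, Cdh6 and Pcdh7 were higher in knockout cells, by a log2 fold change of 0.63 ± 0.11 and 0.55 ± 0.11 (SE); 0.763% of all genes were called higher and 0.225% lower in that fit. VE-cadherin did not pass in either fit.

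Cdh6 (chr15:13028701-13173675, minus strand, mm10) had 40.4, 47.4 and 52.1 CPM in knockout endothelial batches 1 to 3, against 27.2 and 32.4 CPM in WT batches 1 and 3. The groups do not overlap and both pairs have the knockout higher, as in Cdh3 (Cdh6 unpaired log2 fold change 0.65 ± 0.15, adjusted p = 0.999, unadjusted 0.00455, and paired adjusted p = 0.00187, edgeR). The share of all genes with such groups and pairs was not computed. Pcdh7 (chr5:57717967-58133230, plus strand) had 32.2, 38.5 and 50.1 CPM in knockout endothelial batches 1 to 3, against 22.7 and 33.5 CPM in WT batches 1 and 3, groups that overlap (unpaired 0.52 ± 0.24, adjusted p = 0.999; paired adjusted p = 0.0104). The paired fit leaves 1 residual degree of freedom and knockout batch 2 has no partner in it. Cartilage markers moved with these genes: the sum over 5 of them was 461, 641 and 657 CPM in knockout batches 1 to 3, against 268 and 430.03 CPM in WT batches 1 and 3, all 5 were higher in the paired fit, and none was at 0. Their part in the levels of Cdh6 and Pcdh7 was not tested. T-cadherin had 10.3, 9.14 and 22.8 CPM in knockout batches, against 6.15 and 16.1 CPM in WT batches, and did not pass in the paired fit (0.61 ± 0.16, adjusted p = 0.0652). Cdh3 had 9.30, 16.5 and 14.3 CPM in knockout batches, against 8.04 and 7.49 CPM in WT batches (unpaired 0.79 ± 0.27, unadjusted p = 0.0242, paired adjusted p = 0.185, edgeR).

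The 250 bases before the RefSeq start of Cdh6 (chr15:13173676-13173925, minus strand, GRCm38.p6), the member nearest to a call in the unpaired fit, hold 6 CG dinucleotides and 1 match to GGAAG, marked in capitals as above, and 2 to GGGCGG or CCGCCC, the GC box, which 32.7% of all windows hold.
Cdh6: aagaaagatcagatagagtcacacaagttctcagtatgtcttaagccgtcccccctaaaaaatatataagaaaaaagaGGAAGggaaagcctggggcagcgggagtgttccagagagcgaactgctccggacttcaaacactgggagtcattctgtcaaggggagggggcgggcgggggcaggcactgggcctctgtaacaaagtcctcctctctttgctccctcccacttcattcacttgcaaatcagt

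The other members did not pass in either fit. For Cdh5 the log2 fold change was -0.28 ± 0.24 unpaired and -0.066 ± 0.10 paired (SE), for Pcdh12 -0.33 ± 0.27 and -0.14 ± 0.13, for Cdh11 0.11 ± 0.12 and 0.089 ± 0.12, and for Pcdh18 0.034 ± 0.12 and 0.029 ± 0.11. The endothelial marker sum was 846, 451 and 628 CPM in knockout batches 1 to 3 and 1081 and 669 CPM in WT batches 1 and 3, and 2 of the 10 markers were lower in the paired fit. Part of the spread followed the batch, since 19 of the 33 members tested were highest in batch 3 in both genotypes, among them Cdh13, Cdh22, Cdh2 and Pcdh8. Only batches 1 and 3 could be highest in both genotypes, as WT batch 2 was left out. Same-numbered endothelial libraries deviated together over all genes passing the filter too (r = 0.516 and 0.44). The share of all genes highest in batch 3 was not computed. The interneuron marker sum was 56.8, 36.5 and 117 CPM in knockout batches 1 to 3 and 49.6 and 129 CPM in WT batches 1 and 3, highest in batch 3 as well. So were the sums of the neural progenitor, fibroblast, Schwann cell and neural crest, sensory neuron and cartilage markers in both genotypes. Those of the endothelial, pericyte and smooth muscle, macrophage and erythroid markers were highest in batch 3 in neither genotype. The part of these lists in the members' values was not tested. Of the 24 partner genes none was called unpaired, and the paired fit called Celsr2, which had 87.7, 77.9 and 213 CPM in knockout batches 1 to 3, against 50.1 and 168 CPM in WT batches 1 and 3 (0.57 ± 0.10, adjusted p = 0.00397, edgeR).

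In motor neurons no member was called, of 30 tested, unpaired or paired (in the unpaired fit 0% of 16695 genes were higher and 0.012% lower, and 0.012% and 0.024% paired), and DESeq2 called no member (0% of genes higher and 0.0119% lower). Of the members, Pcdh15 alone had an unadjusted p under 0.05 (0.0378, edgeR), as had 190 of all 16695 genes tested. It had 22.5, 24.9 and 20.01 CPM in knockout motor neurons, against 19.9, 18.2 and 16.6 CPM in WT motor neurons (0.30 ± 0.12, adjusted p = 0.9997, edgeR). Cdh6 had more CPM in the knockout library of all 3 pairs (log2 fold change 0.22 ± 0.059 paired, adjusted p = 0.464), and so had Pcdh10, with 119.5, 155 and 101 CPM in knockout batches 1 to 3, against 103, 128 and 81.98 CPM in WT batches 1 to 3 (0.27 ± 0.056 paired, adjusted p = 0.267). Neither passed. The knockout library was also the higher of each of the 3 pairs in Cdh9, Cdh10, Cdh13, Cdh20, Cdh23, Pcdh15 and Pcdh18. The knockout library was the lower of each pair in Cdh3 and Pcdh17. The share of all genes with such pairs was not computed. Cdh2 (0.014 ± 0.14) and Pcdh8 (0.011 ± 0.077) had log2 fold changes near 0. Knockout motor neuron batch 1 carried 559 CPM of liver markers, against 1.23 CPM or less in the other motor neuron libraries. No member was called without it either, unpaired (0 of 17010 genes called) or paired (104 of 17010). The interaction test, which asks whether the knockout effect differs between the cell types, called none of 33 members (0% of 19266 genes higher and 0% lower by edgeR, none of the members at an unadjusted p under 0.05, and 0 members by DESeq2, where 0.00265% of genes were higher and 0% lower). For Cdh6 the difference of the knockout effects was 0.44 ± 0.50 and for Pcdh7 0.36 ± 0.34 on the log2 scale (SE).

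**Figure D5:**
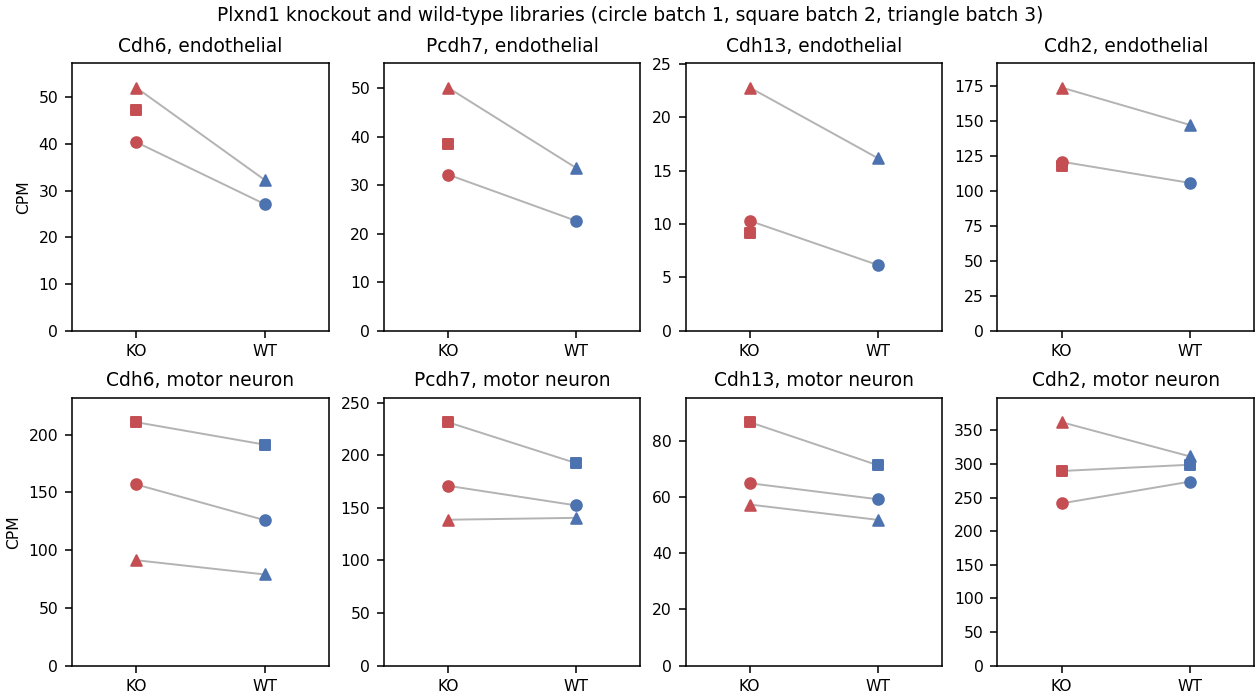
CPM of Cdh6, Pcdh7, Cdh13 and Cdh2 in Plxnd1 knockout (left) and WT (right) libraries of endothelial cells (top) and motor neurons (bottom), with markers for the batch and lines joining the libraries of 1 batch. In endothelial cells the 3 knockout values of Cdh6 all lie above the 2 WT values, and in motor neurons the lines of Cdh6 keep the order of the batches.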

How the data were processed

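Per the labels, RNA of sorted mouse cells was sequenced from 22 libraries. Per the submitters' processing notes the tools included Trimmomatic 0.39, STAR 2.5.3a, featureCounts 1.6.4 and DESeq2. The deposited files hold raw counts per gene on mm10; per the file headers the authors counted without strand and by single reads in the knockout series, and by strand and read pairs in the regional series. Counting without strand cannot separate genes that overlap on opposite strands, which touches 5 members, none over more than 20% of its exon bases. Totals are given with the results, and 21 libraries were used.

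From these counts, CPM used TMM scaling within each fit. Genes passing filterByExpr (minimum count 10) were tested with the quasi-likelihood method of edgeR 4.0.16 (R 4.3.3), with Benjamini-Hochberg adjustment over all genes tested and a threshold of 0.05. SE is the log2 fold change divided by the root of F. Fits of the knockout series with both cell types used all its libraries, other fits used the groups compared, and groups followed the labels. Alternatives were DESeq2 1.42.0, RLE scaling, no filter, a filter at 5 CPM, batches as pairs and leaving out each library. Same-numbered libraries deviated together in the knockout series (r = 0.516 and 0.44 in endothelial cells and 0.359 to 0.413 in motor neurons), so the batch numbers pair them there. In the regional series r lay between -0.273 and 0.303, so its numbers were not taken as pairs. Whether libraries of a group come from separate litters is not stated, so the spread behind a p-value may be partly technical. The steps were checked on simulated counts. Values per library are given for each member called with a log2 fold change over 1 in size, each member called in a knockout comparison under any planned fit, and the 5 highest per kilobase in each group; others are summarised, and Cdh1, Cdh8, Cdh17 and the uncalled members shown per library were chosen after their values were seen. Members and lists were chosen with earlier results of these data known.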

Additional observations from a re-analysis of the deposited data

Results flagged for a closer look

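For independent groups, chance puts 1 library far from the other 4 in about 1 group in 20. The 60 groups of 5 regional libraries examined for single members share their libraries, so that rate cannot be set beside their count. Of these 60 groups, 6 had 1 library far from the other 4. Spinal batch 3 was that library for 3 members: Cdh9 was at 2.25 CPM (0.654 to 1.09 in the other spinal libraries), Pcdh8 at 34.8 CPM (14.7 to 19.5 in the others) and Pcdh1 at 156 CPM (254 to 284 in the others). This library also had the lowest endothelial marker sum of the spinal group, 1644 CPM, and the highest interneuron marker sum, 179.6 CPM. Spinal batch 2 had 713 CPM of Pcdh18 (273 to 369 in the other spinal libraries) and a pericyte marker sum of 8552 CPM. Meningeal batch 2 had 1.41 CPM of Cdh23 (0.429 to 0.662 in the other meningeal libraries), and meningeal batch 4 had 31.5 CPM of Pcdh10 (35.2 to 36.6 in the others). The part of the marker levels in these values was not tested.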

How the results depend on the processing

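The count of members called held within 1.5 times in all settings tried for endothelial cells against motor neurons (24 to 26 in WT and 25 to 28 in knockout embryos, also over the fits without 1 library) and stayed at 0 for the motor neuron knockout and the interaction. For spinal against meningeal cells it was 13 under the filter at 5 CPM (11 higher and 2 lower, with 20 members tested) and 20 to 23 without 1 library each. For the endothelial knockout, batch pairing (the replicate block) raised it to 2 members and 180 genes, DESeq2 called 30 genes and no member, and fits without 1 library called 0 members. For the difference between dissections it was 2 in DESeq2 (with 1210 of 20670 genes called) and 1 with RLE scaling (305 of 17901). It was 5 with no filter (1780 of 32736) and 1 with the 5 CPM filter (236 of 12841). Without 1 library it was 0 to 2, with 2 members and 1190 of 17843 genes called without spinal batch 2. The cause was not tested. Pairing also called Cdh23 in WT embryos and Pcdh15 between regions, and changed no other call of a member named here. Directions turned only where no fit passed. Over the endothelial knockout fits without 1 library, Cdh13 lay between -0.19 (without WT batch 1; also -0.19 without knockout batch 3) and 1.19 (without WT batch 3), Cdh2 between -0.084 (without WT batch 1; -0.077 without knockout batch 3) and 0.38, Pcdh12 between -0.61 and 0.030 (without WT batch 1), and Pcdh18 between -0.062 (without WT batch 3; -0.024 without knockout batch 3) and 0.15. Over those of the motor neuron knockout, Cdh6 lay between -0.089 (without knockout batch 2; -0.055 without WT batch 3) and 0.58. Leaving out 1 of 2 WT endothelial libraries assumes that the one left varies like the other groups. Members under 1 CPM rest on few counts, and differences in them were not detectable at this depth unless large.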
